A study of Mus musculus with 12 samples.

Results

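J774A.1 cells, a macrophage-like line from BALB/c mice, were compared after treatment with microparticles alone (MP) and after treatment with lipopolysaccharide alone (LPS). All 3 MP libraries and all 3 LPS libraries of the 12 RNA sequencing libraries in the series entered the comparison. Control cells (untreated per the labels, mock-treated per the series description) and cells given both agents (LPS+MP), again 3 libraries each, show where a gene's level lies outside the pair. Every group is the same cell line, and the labels give no dose, exposure time, or size and composition of the particles, so the pair is a comparison of these particular exposures and not of matched doses. The replicates are called biological in the series description, without a statement of separate cultures or days, so p-values measure the spread between these libraries. Genes with at least 1 CPM (a gene's reads scaled to a common library total) in at least 3 of the 12 libraries were compared, which kept 11745 of 11762 genes.

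LPS is an outer membrane component of Gram-negative bacteria. Through CD14 and the TLR4 receptor it activates NF-kB, which drives cytokine genes, and the adaptor TRIF, which leads to type I interferon and its effector genes. Particles are taken up by macrophages through surface receptors and are delivered to the lysosome. Particle or oxidant stress is known to engage NRF2, the activator of glutathione and antioxidant genes, and ATF4, the activator of amino acid supply genes in the integrated stress response. Macrophage lines divide in culture, and strong TLR signals are known to hold them back from division.

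The deposited values summed to between 998867 and 999273 per library, and the number of reads behind them is unknown, so differences between libraries give the only error. The 11 libraries other than LPS replicate 2 had median correlations of 0.986 to 0.997 with their own group, and LPS replicate 2 had 0.979. In that library 339 genes lay over 1 on the log2 scale away from the rest of the LPS group, against 29 and 17 genes in the other LPS libraries and 1 to 3 in each MP library. Its deviation followed transcript GC content across genes (Spearman -0.596), and mitochondrially encoded genes took 7.04% of its values, against 5.20% and 5.34% in the other LPS libraries and 6.70% to 7.76% in MP. Where the call of a gene or the count of a list described below changes without this library, that is stated beside it. All 12 macrophage markers sought were among the genes tested, while no marker of T cells, B cells, mast cells, erythroid cells or epithelial cells was. Mmp8, Camp and S100a8 were the neutrophil markers measured, 3 of 10 sought, and their summed level was 2.25 to 3.05 CPM in MP and 43.6 to 57.1 CPM in LPS. Mmp8 was the larger part of it in LPS (mean 46.8 CPM) and S100a8 in MP (mean 1.73 CPM), and the defining markers Ly6g, Mpo and Elane were not among the genes tested. Pdgfra was the 1 fibroblast marker of 8 tested (1.99 to 2.35 CPM in MP, 7.67 to 10.8 CPM in LPS), and the 3 endothelial markers of 7 summed to 14.6 to 17.2 CPM in MP and 7.96 to 15.6 CPM in LPS.

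LPS-treated cells carried the larger differences, and MP-treated cells had many moderate ones. Of the genes tested, 1367 (11.6%) differed at an adjusted p under 0.05 and by over 1 on the log2 scale, that is over 2-fold (limma, on log2(CPM + 1), which compresses differences of genes near 0 CPM). Of these, 587 (5.0%) were higher in MP and 780 (6.64%) higher in LPS, and below a gene is called higher only if it passed both thresholds. These shares of all genes are the background for the counts of the lists below. In 1366 of them the 3 MP and 3 LPS values did not overlap, against 57.0% of all genes tested (MP above in 35.2% and LPS above in 21.8%), and the exception was Rbpms. On the MP side the median difference of called genes was 1.34 on the log2 scale, 84 genes differed by over 2 and 9 by over 3. On the LPS side the median was -1.65, with 294 genes beyond 2, 112 beyond 3 and 66 beyond 4. Without the fold threshold the majority turned: 4086 genes (34.8%) were higher in MP and 2487 (21.2%) higher in LPS. That majority depends on scaling, since median-ratio scaling, which moves the median difference of all genes from 0.12 to 0.01, gave 3048 and 3153.

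**Figure D1:**
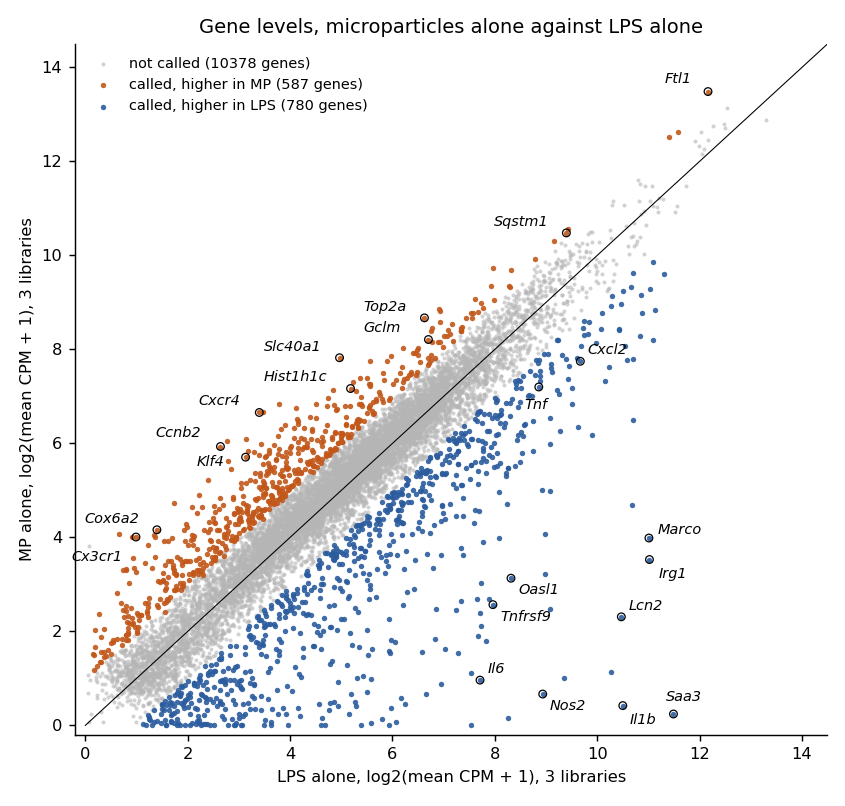
Mean level of each tested gene in LPS-treated cells (x axis) and MP-treated cells (y axis), both as log2(mean CPM + 1) over 3 libraries, with called genes in colour and the diagonal marking equal levels. The 780 genes higher in LPS reach far below the diagonal, down to genes near 0 in MP such as Saa3 and Il1b, while the 587 genes higher in MP stay closer to it.

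The acute phase, cytokine and microbicidal genes stood furthest apart. Saa3, an acute phase apolipoprotein gene (chromosome 7, 46711998 to 46715676), was at 0.0246, 0.122 and 0.402 CPM in the MP libraries and at 3307, 2444 and 2882 CPM in the LPS libraries. Il1b, the gene of the fever-inducing cytokine interleukin 1 beta, was at 0.322, 0.516 and 0.178 CPM in MP and at 1566, 1482 and 1297 CPM in LPS. Both genes were thus near the bottom of the scale in every MP library, and their log2 differences were -11.25 ± 0.12 and -10.08 ± 0.10 (SE; adjusted p = 2.18e-18 for each). The 7 genes past 8 on this scale were these and Il1a, Ccl5, Nos2, Lcn2 and Csf3, all of them higher in LPS.

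Of 19 effectors of classical activation, the bactericidal macrophage state, 17 were higher in LPS (median difference -4.91, against 0.12 over all genes). Irg1, which makes the antimicrobial metabolite itaconate, was at 10.2, 11.3 and 10.2 CPM in MP and 2028, 2169 and 2038 CPM in LPS, a 197-fold difference (adjusted p = 2.91e-16). Lcn2, the gene of the iron-sequestering protein lipocalin 2, was 359-fold higher in LPS, and the bacteria-binding scavenger receptor gene Marco 139-fold. Nos2, inducible nitric oxide synthase, was at 1.41, 0.0965 and 0.254 CPM in MP and 498, 424 and 544 CPM in LPS (difference -8.35 ± 0.23, adjusted p = 1.26e-13). Ass1 and Gch1, which supply the arginine and the cofactor that nitric oxide synthase uses, were the 2 members not called (-0.47 and -0.14; both named after their values were seen).

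Of 20 cytokine genes 17 were higher in LPS (median -2.06), and of 15 chemokine genes 12 were (median -2.27). Tnf was at 131, 155 and 153 CPM in MP and at 416, 503 and 472 CPM in LPS, 3.17-fold higher (difference -1.66 ± 0.09, adjusted p = 2.83e-10). The neutrophil chemoattractant gene Cxcl2 was at 225, 238 and 179 CPM in MP and at 794, 868 and 782 CPM in LPS, 3.81-fold higher. These were among the smaller differences of the lists. The granulocyte growth factor gene Csf3 and the interleukin genes Il6 and Il10 differed by -8.10 ± 0.11, -6.77 ± 0.16 and -4.92 ± 0.17, with each gene under 2 CPM in every MP library. Among chemokines, the monocyte attractant gene Ccl7 was 17.5-fold higher in LPS and Ccl4 4.64-fold. Csf1, the macrophage growth factor gene, was not called, at 56.2, 55.4 and 53.4 CPM in MP and 77.6, 77.5 and 58.1 CPM in LPS (-0.35 ± 0.11, adjusted p = 0.0109), a narrow gap with no overlap of the libraries.

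Several inhibitors of these pathways were also higher in LPS. In the NF-kB list of subunits and feedback inhibitors 12 of 23 genes were higher in LPS (median -1.04). Tnfaip3, a deubiquitinase that ends NF-kB signalling, was 12-fold higher, Nfkbia, the inhibitor IkB alpha, 5.22-fold, and the adaptor gene Traf1 differed by -3.03 ± 0.11. Of 23 genes of cytokine receptors and signal feedback 8 were higher in LPS. Socs3, an inhibitor of STAT3 signalling, was at 4.38, 4.69 and 4.57 CPM in MP and 592, 410.1 and 615 CPM in LPS, 119-fold higher. In the Toll-like receptor list 8 of 25 genes were higher in LPS, with the signal inhibitor gene Irak3 at 9.14-fold and Tlr2 at 3.5-fold. Cd14, the LPS co-receptor, was 477, 491 and 483 CPM in MP and 1476, 869 and 1339 CPM in LPS, where LPS replicate 2 was the low value. Tlr4 itself overlapped between the groups (47.9, 44.5 and 51.8 CPM against 50.9, 67.9 and 48.7, difference -0.20 with a 95% interval of -0.42 to 0.03). Tlr5, the flagellin receptor gene, was the 1 Toll-like receptor higher in MP, with 8.55 to 9.56 CPM against 0.420 to 0.831.

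Interferon effectors separated the treatments as a whole group. All 31 type I interferon effector genes tested were higher in LPS (median -3.45), and so were 11 of 12 guanylate-binding proteins and immunity-related GTPases (median -4.31), which attack vacuoles that hold microbes. The exception was Gbp8 (0.97 ± 0.22 toward MP, named after its values were seen), and without LPS replicate 2 the list had 1 gene higher in MP. Guanylate-binding protein genes are paralogues whose reads may not be fully separable. Oasl1, a regulator of the antiviral response, was at 7.06, 8.54 and 7.70 CPM in MP and 344, 273 and 337 CPM in LPS, 40.9-fold higher (adjusted p = 4.06e-15). Irf7, the transcription factor that amplifies interferon, was 59.8-fold higher in LPS. No library of one treatment reached the range of the other in any of the 31 effectors. All LPS libraries were above all MP libraries in 21.8% of all genes, and 1366 of the 1367 called genes had no overlap. Of the 15 interferon regulatory factors and STATs 7 were higher in LPS, while Irf3, Irf8 and Stat6 lay within 0.15 of equal (these 3 named after their values were seen).

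Promoter sequence of 2 of these genes is shown because the interferon-stimulated response element, the binding site of STAT and IRF complexes, lay close to their start sites. The element was searched as GAAA, NN and GAAA in a row on both strands of RefSeq promoters (250 bases before and 50 after the gene start, GRCm38.p6), with the matches in capitals below. Isg15, the gene of a ubiquitin-like antiviral modifier (difference -4.98 ± 0.20, named after its values were seen), is on the minus strand, chr4:156200819-156200968. Gbp7, a guanylate-binding protein gene (-6.45 ± 0.19), is on the plus strand, chr3:142530186-142530335.
Isg15: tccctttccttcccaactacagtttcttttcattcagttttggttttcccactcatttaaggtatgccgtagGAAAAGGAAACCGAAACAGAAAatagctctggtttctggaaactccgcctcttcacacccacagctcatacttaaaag
Gbp7: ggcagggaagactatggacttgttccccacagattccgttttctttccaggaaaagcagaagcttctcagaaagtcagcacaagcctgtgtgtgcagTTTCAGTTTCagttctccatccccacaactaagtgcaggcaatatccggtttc
The stretches are the 150 bases before each start. Isg15 held 3 overlapping matches between 78 and 66 bases before the start, and Gbp7 held 1 match at 53 bases. Of the interferon effector genes 12 of 22 with a promoter in the table had a match, and of the guanylate-binding protein list 7 of 7 did, against 3.25% of all 8681 promoters of tested genes.

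Many surface receptor and antigen presentation genes were also higher in LPS. Of all genes tested, 6.64% were higher in LPS and 5.0% higher in MP. In antigen presentation and costimulation 10 of 19 genes were higher in LPS (median -1.06), with the MHC class I gene H2-T23 at -3.63 ± 0.13, the peptide transporter gene Tap1 at -2.23 ± 0.11 and the MHC class II chaperone gene Cd74 at -1.70 ± 0.10. Of 27 scavenger, Fc and particle uptake receptors 12 were higher in LPS (median -0.82). They included the sialic acid receptor gene Siglec1 (18.1-fold) and the IgG receptor gene Fcgr1 (4.55-fold). Emr1, which encodes the macrophage marker F4/80, was at 74.9, 71.1 and 68.5 CPM in MP and 1012, 985 and 874 CPM in LPS, 13.4-fold higher. In the matrix list 5 of 16 genes were higher in LPS and 3 in MP. The LPS side included the collagenase genes Mmp13 (15.5-fold) and Mmp8 (47.5-fold), the gelatinase gene Mmp9 (4.05-fold, named after its values were seen) and the thrombospondin gene Thbs1 (-6.12 ± 0.20). On the MP side were the urokinase gene Plau (3.72-fold), the inhibitor gene Timp2 (2.21-fold) and the osteopontin gene Spp1 (2.23-fold), which fell short of the threshold without LPS replicate 1 (0.98). Among apoptosis regulators 5 of 20 genes were higher in LPS, among them the death receptor gene Fas (-2.40 ± 0.14), its inhibitor gene Cflar (-1.59 ± 0.11) and the near-identical survival genes Bcl2a1d and Bcl2a1a (-3.67 ± 0.16 and -3.48 ± 0.12), whose reads may not be separable, and Bcl2 itself was higher in MP (1.13 ± 0.10).

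Of 15 inflammasome and necroptosis genes 3 were higher in LPS (median -0.37), against 6.64% of all genes tested. Nlrp3, the sensor that particles and crystals are known to trigger once it has been primed, was at 97.2, 99.5 and 93.8 CPM in MP and 274, 277 and 271 CPM in LPS, 2.83-fold higher with tight replicates. The caspase gene Casp4, whose protein binds LPS inside the cell, and the bacterial sensor gene Nlrc4 were 2.95-fold and 2.48-fold higher in LPS. Among MAP kinase phosphatases and related feedback genes 3 of 20 were higher in LPS and 1 in MP, against 6.64% and 5.0% of all genes. The former were the phosphatase genes Dusp2 (-2.01 ± 0.23) and Dusp16 (-1.01 ± 0.09) and the cytokine mRNA decay gene Zfp36 (2.66-fold). Dusp16 fell short of the threshold with array weights (-0.96), without LPS replicate 2 (-0.97) and without MP replicate 3 (-0.93). Zfp36l2 was the member higher in MP (1.24 ± 0.07). In the list of 15 purinergic and prostaglandin genes 2 were higher in LPS and 1 in MP. The adenosine receptor gene Adora2b was 8.32-fold higher in LPS and the prostaglandin receptor gene Ptger4 2.72-fold. Alox5, which starts leukotriene synthesis, was at 54.9, 48.2 and 37.7 CPM in MP and 8.98, 9.74 and 14.1 CPM in LPS, 4.30-fold higher in MP.

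**Figure D2:**
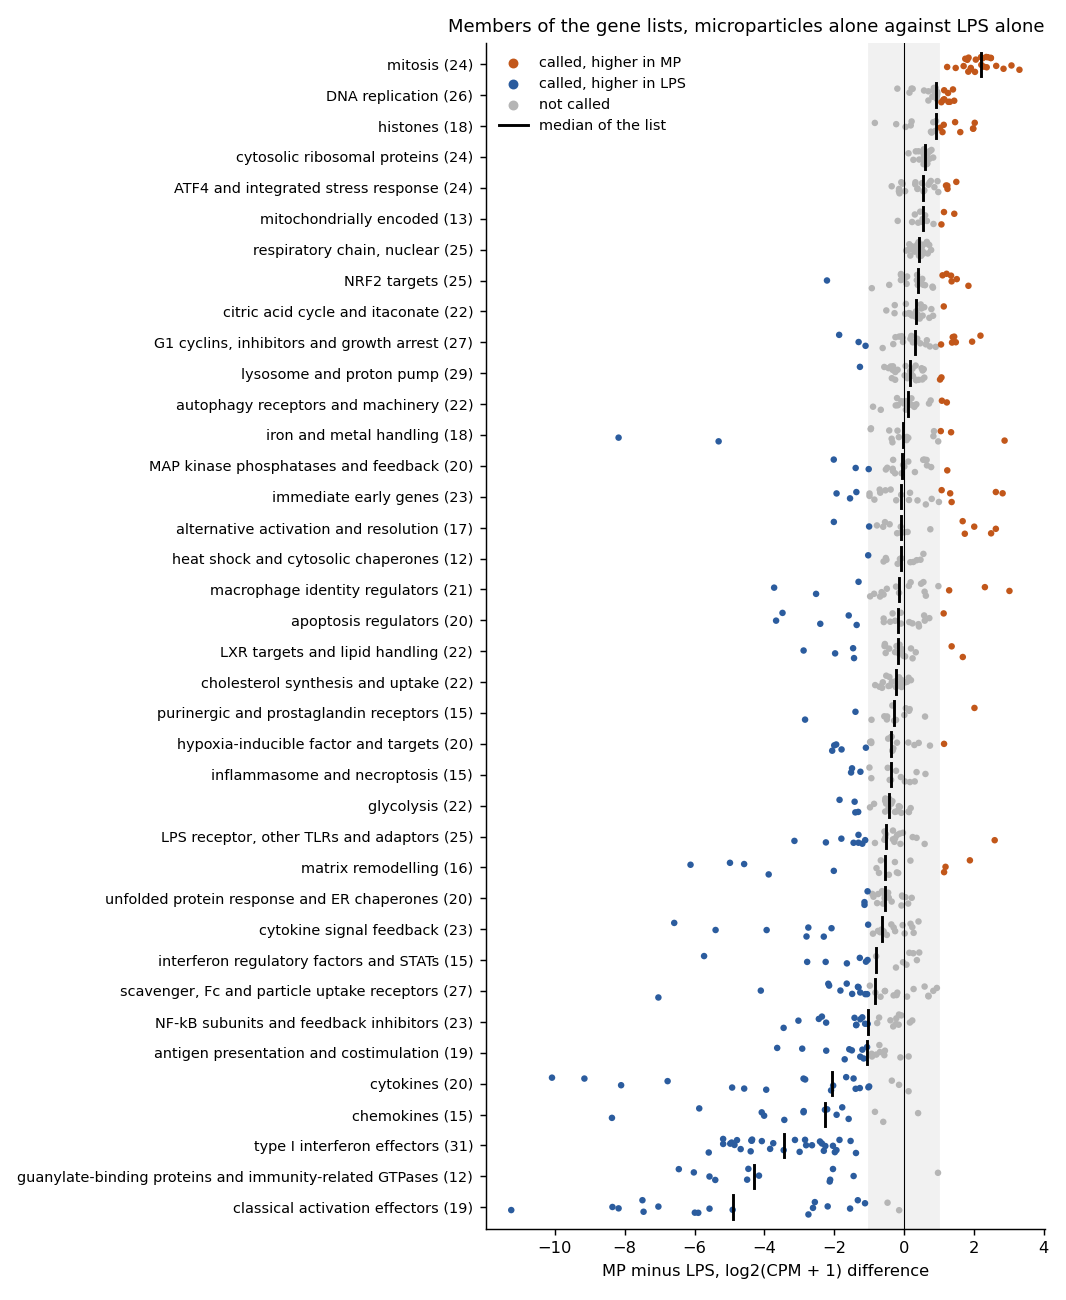
Difference between MP and LPS, in log2(CPM + 1), of each tested member of 38 gene lists, with list medians as black bars and the number of members tested in parentheses. All 24 mitosis genes lie on the MP side, all 31 type I interferon effectors lie on the LPS side, and lists in the middle hold members on both sides of 0.

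Among antioxidant and amino acid stress genes more were higher in MP than in LPS. Of 25 NRF2 targets 6 were higher in MP and 1 in LPS, or 2 without LPS replicate 2 (median 0.39, against 0.12 over all genes). Gclm, the regulatory subunit gene of the enzyme that starts glutathione synthesis (chromosome 3, 122245557 to 122269984), was at 292, 295 and 299 CPM in MP and 97.7, 103 and 109 CPM in LPS. It was 2.86-fold higher in MP (difference 1.51 ± 0.06, adjusted p = 1.64e-11), and the LPS libraries lay little above the control values of 78.5, 80.1 and 77.0 CPM. Gsta3, a glutathione transferase gene, was 4.44-fold higher in MP, Gclc, the catalytic partner of Gclm, 2.34-fold, and the pentose phosphate gene Taldo1 2.15-fold, with a difference of 0.99 under median-ratio scaling that was short of the threshold. Osgin1, an oxidative stress gene, made up the 6 (1.36 ± 0.14, named after its values were seen). Its mean was 39.3 CPM in MP, 14.7 CPM in LPS and 47.4 CPM in control, above both. Ftl1, the ferritin light chain gene, was at 10757, 12418 and 11277 CPM in MP and 4850.3, 3447 and 5489 CPM in LPS, 2.50-fold higher. Fth1, the ferritin heavy chain gene, lay toward LPS and was not called (-0.43 ± 0.11, named after its values were seen). Its means were 7503 CPM in MP and 10108 CPM in LPS. Control means lay between MP and LPS for Ftl1 (7351 CPM), Gclc (80.2 CPM) and Taldo1 (335 CPM). They lay below both treatments for Gclm and Gsta3 (1.13 CPM). Sqstm1, the autophagy receptor p62, was at 1453, 1463 and 1365 CPM in MP and 673, 629 and 719 CPM in LPS, 2.12-fold higher (1.08 ± 0.07), but its difference was 0.97 with median-ratio scaling, under the fold threshold.

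Slc7a11 went the other way within the same list. This cystine transporter gene was at 47.7, 49.9 and 46.5 CPM in MP and 239.9, 226 and 212 CPM in LPS, 4.70-fold higher in LPS (-2.21 ± 0.09, adjusted p = 1.28e-11). Hmox1, heme oxygenase, was also toward LPS, at 233, 264 and 260.1 CPM against 477, 420.4 and 549.5 CPM. Its difference of -0.92 ± 0.09 was short of the fold threshold, which it passed without LPS replicate 2 (-1.02), with median-ratio scaling (-1.04) and with array weights (-1.03). Genes that serve glutathione synthesis were thus on both sides.

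The Gclm promoter is shown as the example of this list, on the plus strand at chr3:122245407-122245556 (RefSeq, GRCm38.p6), with its match to the antioxidant response element, the NRF2 site, in capitals.
Gclm: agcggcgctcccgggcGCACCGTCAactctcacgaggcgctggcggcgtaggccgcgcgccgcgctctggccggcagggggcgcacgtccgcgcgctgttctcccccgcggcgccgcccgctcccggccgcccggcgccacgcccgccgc
The element was searched as TGACNNNGC on both strands. The match began 134 bases before the start, on the strand opposite the gene. Of the NRF2 targets 8 of 20 with a promoter had a match, against 15.2% of all promoters, 14.9% of those higher in MP and 13.2% of those higher in LPS.

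In the ATF4 list 4 of 24 genes were higher in MP (median 0.53), and 16 were at an adjusted p under 0.05 without the fold threshold, against 34.8% of all genes. Trib3, a pseudokinase gene of this response, was at 237, 251 and 240.5 CPM in MP and 85.9, 84.5 and 86.0 CPM in LPS, 2.84-fold higher (adjusted p = 4.19e-11). Ddit3, the gene of the stress transcription factor CHOP, was at 109, 118 and 99.4 CPM in MP and 42.1, 47.0 and 47.0 CPM in LPS, 2.40-fold higher. Atf5, another transcription factor gene, and Shmt2, the mitochondrial serine enzyme gene, were 2.42-fold and 2.30-fold higher. Cth, which makes cysteine, was close in both: 193 to 200.1 CPM in MP against 147 to 151 CPM in LPS (0.39 ± 0.07, adjusted p = 0.000373), with 15.8 to 19.6 CPM in control. Genes of the endoplasmic reticulum stress response lay on the other side, with 3 of 20 higher in LPS (median -0.56), against 6.64% of all genes. They were the disulfide isomerase genes Pdia4 and Pdia6 (both -1.13) and Creld2 (-1.05 ± 0.12). Creld2 fell short of the fold threshold with array weights (-0.96), without MP replicate 1 (-0.94) and without LPS replicate 1 (-0.93).

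Mitosis was the one list of the 38 whose tested members were all higher in MP. Its 24 genes were higher in MP than in LPS, with a median difference of 2.21. No library of either treatment overlapped with the other in any of them, while all MP libraries were above all LPS libraries in 35.2% of all genes. Absence of overlap adds little here, since it held for 1366 of the 1367 called genes. Ccnb2, cyclin B2, which drives entry into mitosis (chromosome 9, 70407689 to 70421554), was at 59.2, 63.6 and 57.7 CPM in MP and 4.26, 5.55 and 5.89 CPM in LPS (difference 3.30 ± 0.12, adjusted p = 3.54e-12). Control cells had 96.3, 94.8 and 90.0 CPM of Ccnb2, so the MP libraries lay below control and the LPS libraries far below both. Top2a, the DNA-untangling topoisomerase gene, was at 417, 400.2 and 403 CPM in MP and 84.5, 108 and 101 CPM in LPS, 4.16-fold higher. The ubiquitin-conjugating gene Ube2c, which serves mitotic exit, was 8.93-fold higher in MP, the mitotic gene Cdc20 4.99-fold and the spindle gene Tpx2 4.67-fold. In these bulk values, fewer dividing cells and less of the transcript per cell cannot be told apart.

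Replication genes followed with smaller differences. Of 26 genes 9 were higher in MP (median 0.92), and 22 were so without the fold threshold, against 34.8% of all genes. The replication licensing gene Mcm5 was at 179, 189.9 and 222 CPM in MP and 70.9, 67.1 and 78.0 CPM in LPS, 2.73-fold higher, and Mcm2 was 2.41-fold higher. Rrm2, a ribonucleotide reductase subunit gene, did not pass, at 95.8, 107 and 114 CPM against 46.2, 61.6 and 56.5 CPM (0.94 ± 0.11), and did pass without MP replicate 1 (1.01) or LPS replicate 2 (1.03). Among G1 and growth arrest genes 7 of 27 were higher in MP and 3 in LPS: the repressor genes E2f8 and Rbl1 and cyclin D1 (Ccnd1) were 4.07-fold, 2.75-fold and 2.62-fold higher in MP. On the LPS side were the arrest gene Gadd45b (-1.86 ± 0.11), cyclin D2 (Ccnd2, -1.30 ± 0.14) and cyclin G2 (Ccng2, -1.10 ± 0.10). Among 18 histone genes 8 were higher in MP (median 0.90). The libraries were poly(A)-selected, so histone transcripts without a poly(A) tail may be missed. Median differences of the histone list from control were 0.03 in MP and -0.41 in LPS, against -0.72 and -1.66 for replication genes. The linker histone gene Hist1h1c had 156, 147 and 125 CPM in MP and 29.5, 28.2 and 48.2 CPM in LPS, 4.05-fold higher, with 40.9 to 43.9 CPM in control. H1f0, the linker histone of resting cells, was 3.91-fold higher in MP; without LPS replicate 2, 1 histone gene was higher in LPS. Histone genes share sequence, and the counting of shared reads is not given.

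Promoters of 2 mitotic genes are shown because the cell cycle homology region, the site through which mitotic genes are silenced in resting cells, lay close to their starts. Top2a is on the minus strand, chr11:99024190-99024339, and the spindle motor gene Kif11 (2.28 ± 0.12, named after its values were seen) on the plus strand, chr19:37376232-37376381 (RefSeq, GRCm38.p6). The region was searched as TTTGAA on both strands, and capitals mark the match nearest the start.
Top2a: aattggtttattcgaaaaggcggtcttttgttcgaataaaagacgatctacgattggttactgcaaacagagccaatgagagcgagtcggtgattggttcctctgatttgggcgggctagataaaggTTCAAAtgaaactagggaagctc
Kif11: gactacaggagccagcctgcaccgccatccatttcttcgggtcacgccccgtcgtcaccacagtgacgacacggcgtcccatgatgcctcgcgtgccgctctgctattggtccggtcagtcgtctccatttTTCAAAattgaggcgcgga
The match began 23 bases before the start in Top2a and 19 bases before it in Kif11. Of mitosis genes with a promoter in the table, 14 of 20 had this match and 17 of 20 had a CCAAT box (CCAAT, both strands), against 11.7% and 39.4% of all promoters. Neither match was particular to this list. The cell cycle match was in 8 of 16 apoptosis promoters and 4 of 7 of the guanylate-binding protein list, but in 2 of 21 replication promoters. The CCAAT box was in 15 of 17 promoters of the endoplasmic reticulum stress list and 13 of 16 of the cholesterol synthesis list.

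Over all called genes, 26.0% of the 435 promoters higher in MP held the cell cycle homology region. The share was 15.7% of the 561 higher in LPS and 11.7% of all promoters. The CCAAT box was in 47.6% and 36.5%, against 39.4% of all promoters. The interferon-stimulated response element was in 11.6% of the promoters higher in LPS and 3.45% of those higher in MP, against 3.25% of all promoters. The AP-1 site (TGANTCA) was in 13.4% and 5.52%, against 5.02% of all promoters. For the NF-kB site (GGGA, NNN and TCC in a row, both strands) the shares were 6.95% on the LPS side, 5.06% on the MP side and 5.22% of all. For the ATF4 element (TGATGNAA) they were 4.81%, 2.99% and 2.27%. The cAMP response element (TGACGTCA) was in 1.25% on the LPS side and 3.91% on the MP side, against 3.33% of all promoters. The sterol response element (TCACNCCAC) was in 0.891% and 1.15%, against 1.01% of all. On the MP side both shares were thus near those of all promoters. Mean GC content was 56.9% in the promoters higher in LPS, 60.6% in those higher in MP and 61.0% in all, and its part in these shares was not tested.

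**Figure D3:**
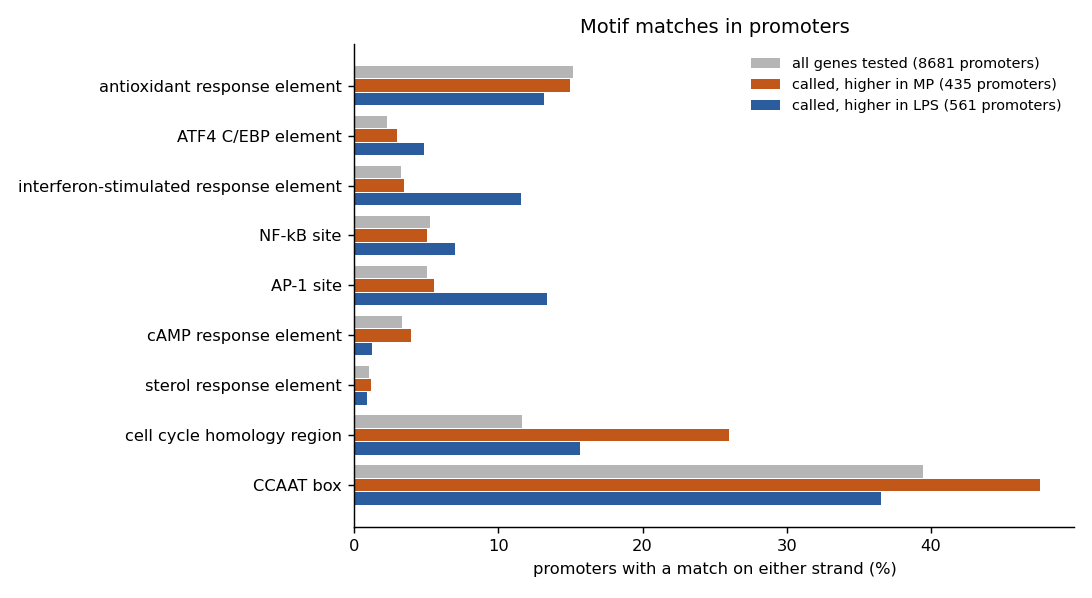
Percentage of RefSeq promoters (300 bases around the start) with a match to each of 9 motifs on either strand, for all tested genes, genes called higher in MP and genes called higher in LPS. The MP bar is above the LPS bar for the cell cycle homology region (26.0% and 15.7%) and the CCAAT box (47.6% and 36.5%), and below it for the interferon-stimulated response element (3.45% and 11.6%) and the AP-1 site (5.52% and 13.4%).

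The far end of the MP side held receptor and signalling genes beside mitotic ones. The 9 genes past 3 on the log2 scale were Pi16, Ccnb2, Nrcam, Cxcr4, Sapcd2, Rgs2, Ube2c, Cx3cr1 and Pif1. Cxcr4, the chemokine receptor that holds cells in bone marrow, was at 100.2, 96.1 and 104 CPM in MP and 9.16, 10.6 and 8.91 CPM in LPS, 10.5-fold higher (3.26 ± 0.10, adjusted p = 3.73e-13). Cx3cr1, the fractalkine receptor of resident macrophages, was at 14.1, 15.4 and 15.8 CPM in MP and 0.995, 0.996 and 0.965 CPM in LPS, but the MP libraries were themselves far under the control values of 71.0 to 76.6 CPM. The adhesion gene Nrcam and the G protein regulator gene Rgs2 were 11.3-fold and 9.95-fold higher in MP. Slc40a1, ferroportin, the one known cellular iron exporter, was at 222, 229 and 225 CPM in MP and 26.1, 38 and 26.6 CPM in LPS, 7.45-fold higher (2.88 ± 0.11).

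The alternative activation list, genes of the repair-type macrophage, was split, with 5 of 17 genes higher in MP and 2 in LPS (median -0.09, which changed sign with quantile normalization, array weights and without LPS replicate 2). The mannose receptor gene Mrc1 was 4.98-fold higher in MP, the lipid-sensing receptor gene Trem2 3.20-fold and the lectin gene Mgl2 3.40-fold. Klf4 and Gas6 made up the 5 (2.63 ± 0.18 and 2.49 ± 0.27, Gas6 named after its values were seen). Control means of Mrc1, Trem2 and Gas6 (15.5, 464 and 15.2 CPM) lay above their MP means (14.1, 384 and 9.16 CPM). Those of Mgl2 and Klf4 (61.9 and 19.2 CPM) lay between MP and LPS. Il4ra, the receptor chain through which this state is induced, was 4.11-fold higher in LPS. Arginase 1 (Arg1), its usual marker in mouse cells, lay under 2 CPM in all 6 libraries and was not called (-0.78 ± 0.26, adjusted p = 0.0183), although it passed with a pseudocount of 0.1 (-1.87) and with array weights (-1.20). Tgm2, the other member higher in LPS, was at -1.0 and fell short of the threshold without MP replicate 1 (-0.97), MP replicate 2 (-0.94), LPS replicate 1 (-0.98) or LPS replicate 3 (-0.89).

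Immediate early and Krüppel-like genes lay on both sides, with 5 of 23 higher in MP and 3 in LPS, and 5 in LPS without LPS replicate 2. Klf2, a repressor of inflammatory genes, was at 33.2, 40.6 and 35.3 CPM in MP and 4.36, 4.20 and 4.25 CPM in LPS, 8.52-fold higher. Klf4 was 6.6-fold higher in MP. At smaller differences the AP-1 subunit genes Fosb (1.36 ± 0.19) and Jund (1.08 ± 0.22, named after its values were seen) and Egr3 (1.32 ± 0.20) were higher in MP. Fosb was low, with means of 1.85 CPM in MP and 0.104 CPM in LPS. Other AP-1 subunit genes, named after their values were seen, were not called. Junb (-0.99 ± 0.16), Fosl2 (-0.85 ± 0.11) and Fos (-0.53 ± 0.15) lay toward LPS, Jun (0.79 ± 0.16) lay toward MP, and Fosl1 was near equal (0.17 ± 0.29). On the LPS side were Ier3 (-1.93 ± 0.11), Nr4a1 (-1.55 ± 0.21) and Btg2 (-1.37 ± 0.08). In the list of macrophage identity regulators 3 of 21 genes were higher in MP, the myeloid transcription factor gene Cebpa (2.31 ± 0.16), Cx3cr1 and the repressor gene Bhlhe41 (1.29 ± 0.10). Emr1, Ly6e (-2.52 ± 0.13) and Itgam (-1.30 ± 0.08) were higher in LPS, a count that was 5 without LPS replicate 2.

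**Figure D4:**
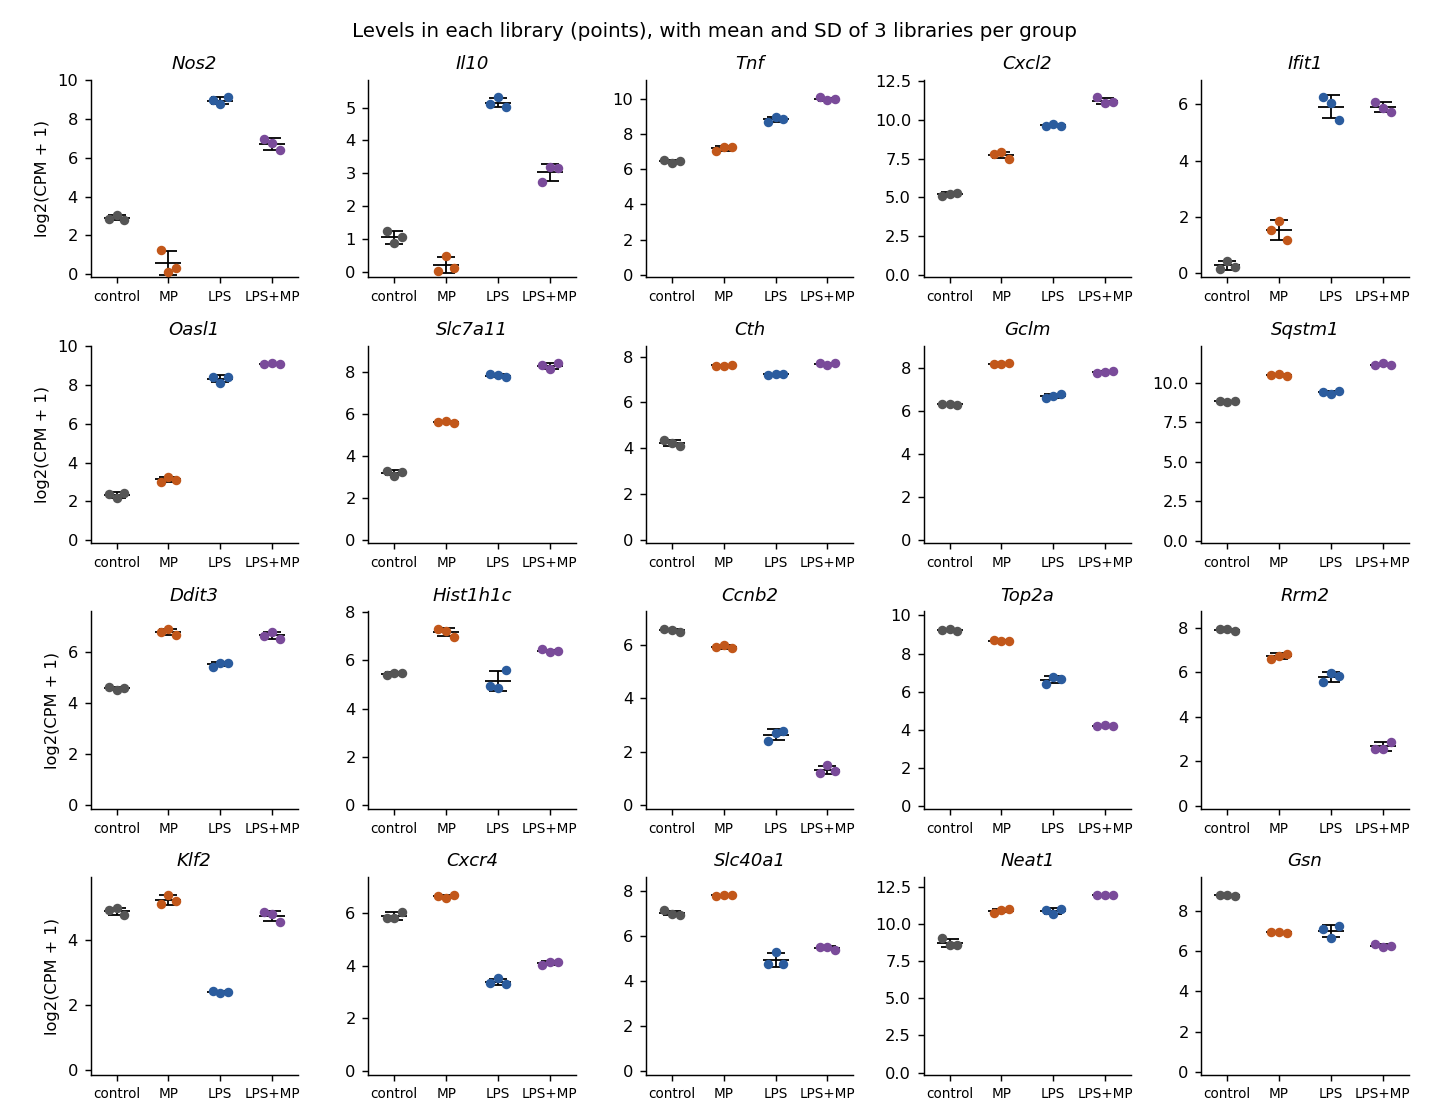
Level of 20 genes in each of the 12 libraries, as log2(CPM + 1), with the mean and SD of the 3 libraries per group. Nos2 and Il10 are high in LPS and near 0 in MP, Gclm and Hist1h1c are high in MP and near control in LPS, Ccnb2 and Top2a step down from control to MP to LPS, and Neat1 and Gsn are level in MP and LPS and far from control.

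Sugar and oxygen-response genes were higher in LPS than in MP in part, with list medians below control in both treatments. Median differences from control were -0.39 in LPS and -0.70 in MP for glycolysis, and -0.16 and -0.54 for hypoxia genes. Of 22 glycolysis genes 4 were higher in LPS (median -0.43): the regulator gene Pfkfb3 (-1.85 ± 0.11), hexokinase 2 (Hk2, 2.68-fold) and the glucose transporter genes Slc2a1 (-1.40 ± 0.09) and Slc2a6 (-1.31 ± 0.12). In the hypoxia list 5 of 20 were higher in LPS, and Epas1, the factor HIF-2 alpha, in MP (1.14 ± 0.10, 0.94 with array weights). The collagen-modifying enzyme genes P4ha2 and P4ha1 were 4.09-fold and 2.14-fold higher in LPS, Fam162a 3.63-fold, and Ankrd37, named after its values were seen, differed by -2.06 ± 0.31. The mitophagy gene Bnip3 was at 39.1, 45.9 and 44.7 CPM in MP and 128, 219 and 171 CPM in LPS, 4.00-fold higher, with control at 281 to 317 CPM above both.

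Translation and nuclear respiration genes had small positive differences that did not pass the fold threshold. Of 24 ribosomal protein genes limma called 0 in either direction, while 24 of 24 differences were positive (median 0.59). At an unadjusted p under 0.05 alone, 23 of the 24 were toward MP, against 37.5% of all genes tested. Rpl4 was at 2191, 2144 and 2118 CPM in MP and 1127, 1338 and 1290.2 CPM in LPS (0.78 ± 0.08), and passed the fold threshold with quantile normalization (1.03). Nuclear genes of the respiratory chain had 0 of 25 called by limma, 25 positive and 20 toward MP at an unadjusted p under 0.05 (median 0.43). These medians were 0.47 and 0.31 with median-ratio scaling, when the median of all genes was 0.01. In the citric acid cycle list the isocitrate dehydrogenase gene Idh2 was higher in MP (1.14 ± 0.06), 1 of 22. Of the 13 mitochondrially encoded genes 3 were higher in MP (median 0.53), mt-Nd3 (1.44 ± 0.24), mt-Nd1 (1.14 ± 0.14) and mt-Cytb (1.07 ± 0.12). The latter pair fell short of the threshold with quantile normalization (0.71 and 0.66), and mt-Cytb also with median-ratio scaling (0.95) and without LPS replicate 3 (0.97). The mitochondrial share of LPS replicate 2 lay within the range of the MP libraries, and the median of this list was 0.77 without that library.

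Lysosome, autophagy and chaperone genes were called at shares close to that of all genes tested (11.6%). Of 29 lysosome genes 2 were higher in MP, the lysosomal lipase gene Lipa (1.07 ± 0.07, 0.95 with median-ratio scaling) and Gpnmb (1.03 ± 0.14, short of the threshold with both other scalings and without MP replicate 1 or LPS replicate 3, down to 0.92), and the cholesterol carrier gene Npc2 was higher in LPS (-1.26 ± 0.09). In the autophagy list Sqstm1 and Tfeb, the master regulator of lysosome genes (1.22 ± 0.16), were higher in MP, 2 of 22, and without LPS replicate 2 another member was higher in LPS. Of 12 heat shock genes only Hsph1 was called, toward LPS (-1.03 ± 0.07), and it fell short with array weights (-0.94) and without LPS replicate 1 (-0.97).

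Cholesterol and lipid genes differed in single members. In cholesterol synthesis and uptake limma called 0 of 22 genes in either direction, with 12 toward LPS and 0 toward MP at an unadjusted p under 0.05 (median -0.24), against 22.8% and 37.5% of all genes. Insig1, a sterol sensor gene, overlapped (88.6, 91.7 and 96.5 CPM in MP, 107, 110.0 and 92.2 CPM in LPS), with both groups under the 245 to 259 CPM of control. In lipid handling 4 of 22 genes were higher in LPS, the triglyceride synthesis gene Dgat2 (-2.88 ± 0.16), the fatty acid activating gene Acsl1 (3.99-fold), the fatty acid carrier gene Fabp4 (-1.46 ± 0.17) and the cholesterol exporter gene Abca1 (2.71-fold), and 2 in MP, lipoprotein lipase (Lpl, 3.26-fold) and apolipoprotein E (Apoe, 1.36 ± 0.33). In iron and metal handling Lcn2 and ceruloplasmin (Cp, 49.0-fold) were higher in LPS, and Slc40a1, Ftl1 and metallothionein 1 (Mt1, 1.05 ± 0.10) in MP. Mt1 fell short of the threshold with median-ratio scaling (0.94) and array weights (0.99), and without MP replicate 3 (0.97) or LPS replicate 1 (0.96).

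The control libraries place these differences, and since both treatments are set against the same controls, the values are given side by side only. Against control, MP had 214 genes up (1.82%) and 217 down (1.85%), and LPS had 975 up (8.30%) and 945 down (8.05%). Of the 587 genes higher in MP, 460 fell with LPS and 35 rose with MP. In 387 of them the control mean was at or above the MP mean, and the median differences from control were -0.27 for MP and -1.66 for LPS. Of the 780 genes higher in LPS, 658 rose with LPS and 39 fell with MP, with medians of 0.02 for MP and 1.77 for LPS. Most genes higher in MP were thus called lower in LPS than in control rather than higher in MP than in control, and Gclm, Sqstm1, Trib3, Ddit3, Gsta3, Cox6a2 and Hist1h1c were among the 35 that rose.

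In 14 called genes, with predicted genes, pseudogenes and clone names left out, the treatments lay more than 1 from control on opposite sides. Tnfrsf9, which encodes the costimulatory receptor 4-1BB, was at 89.0, 93.8 and 85.3 CPM in control, 5.05, 5.79 and 3.96 CPM in MP and 220.2, 244 and 282 CPM in LPS. MP and LPS differed 50.4-fold in this gene (-5.40 ± 0.11), with the control libraries clear of both. Nos2 and the receptor gene Niacr1 were likewise below control in MP and above it in LPS, with differences between the treatments of -8.35 and -4.28. Among the 14, the 3 genes above control in MP and below it in LPS were Pi16, Klf4 and the receptor kinase gene Epha2 (2.67 ± 0.26).

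A further 55 genes, with predicted genes, pseudogenes and clone names again left out, were alike in MP and LPS and far from control. Of these, 30 lay above control and 25 below. The rule was a 95% interval of the difference within 0.5 of 0 and both treatments over 1 from control in the same direction. Neat1, the long RNA that builds nuclear paraspeckles, was at 1729, 1921 and 2046 CPM in MP, 1922, 1627 and 2048 CPM in LPS and 377 to 526 CPM in control. Its difference between treatments was 0.03, with an interval of -0.23 to 0.29. Gsn, which encodes the actin-severing protein gelsolin, was at 124, 122 and 119 CPM in MP, 134, 98.9 and 152 CPM in LPS and 431 to 441 CPM in control (difference -0.05). Esd, an esterase gene, and Nfil3, a transcription factor gene, were others above control in both treatments, with differences of 0.21 ± 0.06 and 0.14 ± 0.11, the first at an adjusted p of 0.00697.

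Some genes rose with both agents and still separated them. Cd274, which encodes the T cell inhibitory ligand PD-L1, was at 12.8 to 13.5 CPM in control, 69.6, 55.6 and 44.6 CPM in MP and 422, 464 and 399 CPM in LPS, 7.56-fold higher in LPS than in MP. Cd86, a costimulatory ligand gene, was at 190.0, 175 and 149 CPM in MP and 358, 419.8 and 342 CPM in LPS, 2.18-fold higher. Its difference of -1.12 ± 0.09 was -0.99 with array weights, short of the threshold. Cxcl2, Slc7a11, Irg1, Lcn2 and Emr1 had the same order of control, MP and LPS, with no overlap between neighbouring groups.

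Cells given both agents were compared with the pair without a test, by where their mean fell between the MP mean (0) and the LPS mean (1) on the log2 scale. For the 780 genes higher in LPS the median position was 0.84 (quartiles 0.61 and 1.01), and 665 were nearer the LPS level. For the 587 genes higher in MP the median was 1.24 (quartiles 0.82 and 1.71), and in 380 of them the LPS+MP level was beyond that of LPS, further from MP. The mitosis list had a median of 1.81 and the called replication genes 2.20. Top2a had 17.6, 17.9 and 17.6 CPM in LPS+MP, under every library of the other groups. The interferon effectors were at 0.96. The positions use the same MP and LPS libraries that made the calls, so they are a description.

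Stress genes lay on both sides. Of the 587 genes higher in MP, 53 were nearer the MP level in LPS+MP, and Sqstm1 (-0.60), Fosb (-0.05), Ddit3 (0.10), Ftl1 (0.14), Klf2 (0.17) and Gclm (0.26) were among them. Of the called ATF4 genes, Trib3 (0.64), Atf5 (0.79) and Shmt2 (1.27) were nearer the LPS level, as were the NRF2 targets Gclc (0.61), Osgin1 (1.13) and Slc7a11 (1.21). Sqstm1 had 2172, 2379 and 2168 CPM in LPS+MP, above both single treatments. Of the genes higher in LPS 115 were nearer the MP level, among them Ccnd2 (0.07), the integrin gene Itgam (0.11) and the collagenase gene Mmp8 (0.37), while Nos2 (0.73) and Il10 (0.57) lay between. Tnf and Cxcl2, at 1.69 and 1.81, were beyond the LPS level.

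**Figure D5:**
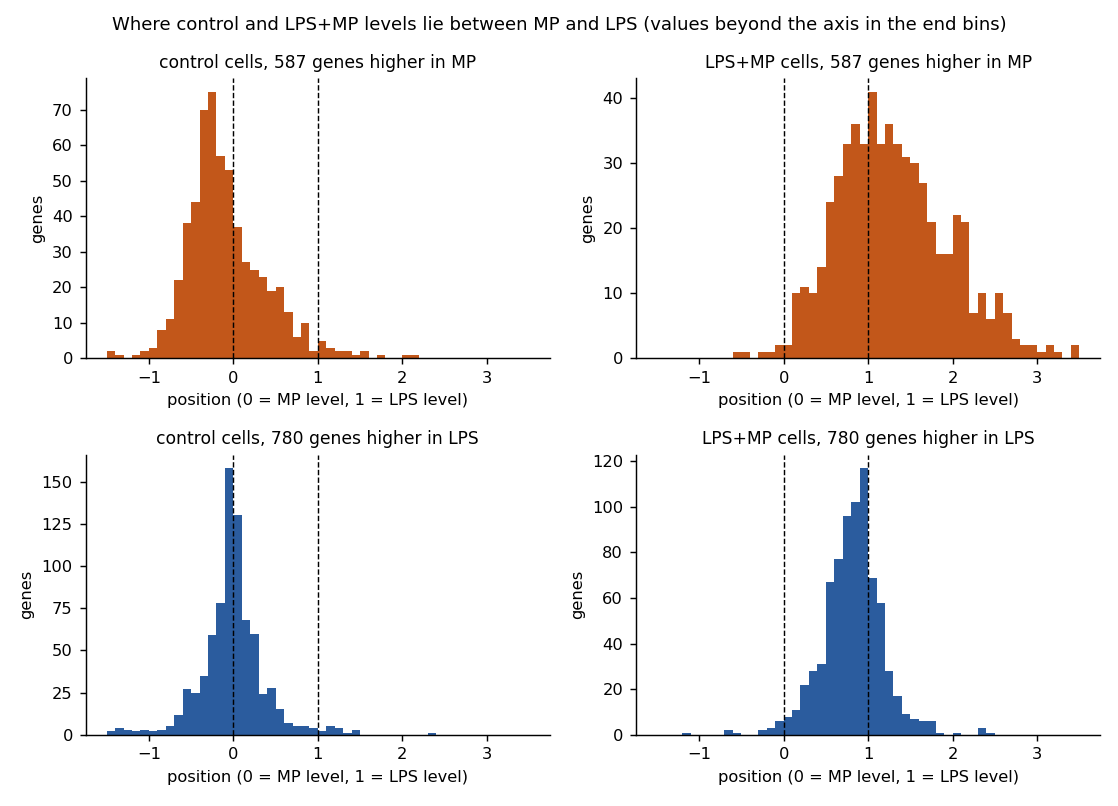
Numbers of genes by the position of the control mean (left) and the LPS+MP mean (right) between the MP mean (0) and the LPS mean (1), for genes higher in MP (top) and higher in LPS (bottom), with values beyond the axis placed in the end bins. The LPS+MP means of genes higher in LPS gather just under 1 (median 0.84), those of genes higher in MP spread past 1 (median 1.24), and control means lie mostly at or past the MP level (387 of 587 and 418 of 780 genes).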

How the data were processed

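RNA from 12 libraries of J774A.1 cells, 3 per group, was sequenced after poly(A) selection and preparation with a directional kit, per the labels' protocols. The values analysed are CPM as deposited by the authors in 1 table. Its columns are headed as RPKM, but they sum to nearly the same total in every library and show no scaling with transcript length, so they were read as CPM and levels were not compared between genes. The log2 values in the deposited table, the authors' mean log CPM per gene, were used only for this check of the unit. TopHat2 2.1.1, Trimmomatic 0.36, edgeR, DESeq2, HTSeq and FastQC are listed, with no order, in the submitters' processing notes. The build is not given in the sources used here, nor the strand setting. Antisense and overlapping genes may share reads. The coordinates printed for genes are those of the table, and 11666 of its genes overlap a GRCm38 gene. Whole reads could not be recovered from the CPM, so no count test was run.

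Genes with at least 1 CPM in at least 3 libraries were kept (17 were removed). limma 3.58.1 (R 4.3.3) was fitted with a variance trend to log2(CPM + 1) of all 12 libraries with 4 group means, and p-values of MP minus LPS were adjusted by Benjamini-Hochberg over 11745 genes. A gene was called at an adjusted p under 0.05 and a difference over 1 on the log2 scale. Errors beside differences are standard errors, and folds are ratios of mean CPM. The fit was run on simulated data with the same spread in all 4 groups. Its behaviour under the wider spread of the LPS libraries was not tested. Named genes were the 15 largest non-overlapping called differences on each side without predicted genes, up to 4 called members per list and direction by adjusted p (the 2 most abundant where none was called), the 10 first alike and 10 first opposite genes by distance from control, and a fixed set of anchor genes, 192 in all. The members and lists were chosen with earlier results of these data known. Promoters came from RefSeq (GRCm38.p6) by gene symbol, with 8681 matched. Alternatives were other scalings, pseudocounts, filters and designs, array weights and leaving out each MP and LPS library (for the LPS+MP positions each LPS+MP library too).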

Additional observations from a re-analysis of the deposited data

How the results depend on the processing

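Of the 1367 called genes, 1240 kept their call without LPS replicate 2, the library that stood apart, and 0 reversed. Leaving out each MP or LPS library in turn gave 563 to 695 genes higher in MP and 756 to 825 higher in LPS. With limma's treat test, which asks for evidence of more than a 2-fold difference, 249 and 495 genes were called, because the criterion is stricter. Dropping the fold threshold gave 4086 and 2487. The other scalings, the pseudocount of 0.1, the minimum of 5 CPM and array weights stayed within 1.5 times of the main counts, between 463 and 772 higher in MP and between 660 and 916 higher in LPS. Of the 192 named genes, none reversed under any setting run, and 6 fell short of the threshold with array weights, 6 with median-ratio scaling and 43 with treat. The median LPS+MP position of genes higher in MP was 1.28 with a pseudocount of 0.1 (1.276), and 1.193 to 1.293 when single libraries were left out. For genes higher in LPS it was 0.859 with that pseudocount and 0.827 to 0.862 without single libraries.

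The fit with the replicate number as a block gave 587 and 780 called genes, the same counts, and changed no call of a named gene. Each number occurs once per group, so the block leaves every difference unchanged and can alter only its error. The equal counts therefore cannot decide whether the numbers are a pairing. Same-numbered libraries deviated together little (median r 0.018 over 18 pairs, lowest -0.247, highest 0.158), and the best match of a library bore its own number in 3 of 12 cases. Given these low correlations the numbers were not taken as a pairing.

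The read depth behind the CPM is unknown, so no counting interval can be given. Genes under about 1 CPM in MP, such as Il1b, Nos2 and Saa3, have differences that depend on the pseudocount. With 3 libraries per group and a within-group SD on the log2 scale of 0.10 in MP and 0.19 in LPS (medians over genes), small differences may have been missed.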
